A study of Homo sapiens with 21 samples.

Results

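Integrins are the receptors by which cells hold on to the extracellular matrix. Each receptor is a pair of an α chain and a β chain, and the pair decides which ligand is bound. The 10 genes described here, of 20111 genes in the expression tables of PC-9 lung cancer cells sorted for EGFR, are 4 α chains (ITGAV, ITGA5, ITGA3 and ITGA6) and 6 β chains (ITGB1, ITGB3, ITGB5, ITGB6, ITGB8 and ITGB4). They were taken by gene symbol, and all 10 were present in both tables.

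The αV chain pairs with β1, β3, β5, β6 or β8, and these receptors bind the Arg-Gly-Asp (RGD) motif of fibronectin, vitronectin, osteopontin and the latent form of TGFβ. The α5 chain pairs with β1 into the main fibronectin receptor. The α3 and α6 chains pair with β1, and α6 also with β4, to bind laminins of the epithelial basement membrane, where α6β4 anchors the cell through hemidesmosomes. In lung epithelium β6 and the laminin receptors are typical, while β3 is best known from platelets, osteoclasts, endothelium and invasive tumour cells.

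PC-9 is a human lung adenocarcinoma line that carries an activating exon 19 deletion of EGFR, and the 21 libraries (poly(A)-selected RNA) came from the unsorted parental line and from populations made by 6 rounds of sorting of the 5 to 10% of cells with the lowest or the highest EGFR, named EGFR-low and EGFR-high. Each population was derived from one line, so the replicates are repeat experiments on the same sorted populations and the p-values measure the spread between those experiments. The untreated experiment held 9 libraries, 3 each of parental, EGFR-low and EGFR-high cells without any drug, harvested 24 h after seeding. The second experiment held 12 libraries, 3 each of EGFR-low and EGFR-high cells kept for 72 h in DMSO, the solvent, or in 1 µM vorinostat (SAHA), an inhibitor of histone deacetylases. The genotype label names the deletion delE746-A750 for the first library, and its end residue rises by 1 from library to library up to 770, so it was not used as a difference between libraries. In these bulk samples, fewer cells with a transcript and less transcript per cell cannot be told apart.

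Levels are in FPKM (fragments per kilobase of transcript, scaled to the size of the library), which allows levels of genes of different length to be compared, and differences are on the scale of log2(FPKM + 1). A difference was called where the adjusted p from limma, over all genes tested in that experiment, was under 0.05. The 2 experiments were fitted separately. EGFR itself followed the sort. Its log2 difference of EGFR-low from EGFR-high was −2.23 untreated, −2.13 in DMSO and −3.09 in vorinostat, and in each of these comparisons the libraries of the populations did not overlap. The 6 epithelial markers summed to between 1552 and 4045 FPKM in every library. Fibroblast markers stayed at or under 5.88 FPKM in sum, endothelial markers at or under 8.30 FPKM and platelet markers, which matter for β3, at or under 1.79 FPKM, and the 5 leukocyte markers summed to between 15.4 and 40.0 FPKM.

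Some libraries stood apart. In the vorinostat experiment the first principal component, 82.5% of the variance, separated the populations, but the library DMSO EGFR-low 1 (score −25.6) and the library DMSO EGFR-high 3 (score 26.3) lay between them. Over 151 genes at least 10-fold higher in EGFR-low cells, the first lay a median 29.2% and the second 74.7% of the way from low to high, and over 219 genes 10-fold higher in EGFR-high cells 21.1% and 70.9%. Differences between the populations in DMSO are therefore also given without these 2 libraries, which leaves 2 libraries in each DMSO group. The first vorinostat replicate of each population also stood apart on the second component (6.53% of the variance), and mitochondrial transcripts took 22.2% and 24.2% of its FPKM, against 7.27 to 18.6% in the other libraries of that experiment. In the untreated experiment the libraries differed in how level followed GC content, with slopes from −0.41 (parental 3) to 0.37 (EGFR-high 3) log2 units per 10 points of GC. Their part in the results was not tested other than by the fits with and without them.

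All 10 members passed the filter on low values (at least 1 FPKM in 3 libraries) in both experiments. Their levels covered a wide range. ITGB1, the shared β chain, led every untreated group, with means from 308 ± 84.0 FPKM (SD, n = 3) in EGFR-high to 482 ± 273 in parental cells. ITGA6 came next in the untreated groups (230 ± 73.2 in EGFR-low, 268 ± 57.3 in EGFR-high and 378 ± 152 in parental), and its values overlapped those of ITGB1 in parental and EGFR-high cells and lay below them in EGFR-low cells. ITGA3, ITGB5, ITGB6, ITGB4 and ITGAV followed, with group means between 16.0 and 66.8 FPKM. Among these, ITGB6 stood clear of ITGAV in all 3 groups, ITGB4 clear of both ITGB6 and ITGAV in parental cells and ITGB5 clear of ITGB4 in EGFR-high cells, while the other neighbours in their order overlapped. ITGA5, ITGB8 and ITGB3 were the lowest in parental and EGFR-high cells. In parental cells the order ended with ITGA5 at 7.35 ± 1.73, ITGB8 at 4.13 ± 0.623 and ITGB3 at 0.517 ± 0.207 FPKM. Of the 16 integrin chains outside these 10, 4 passed the filter in each experiment, and ITGA2, the collagen-binding α2 chain, was the highest of them at 39.1 to 84.7 FPKM in untreated cells. The platelet partner of β3, ITGA2B, stayed at or under 0.191 FPKM untreated and at or under 0.845 FPKM in the vorinostat experiment.

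**Figure D1:**
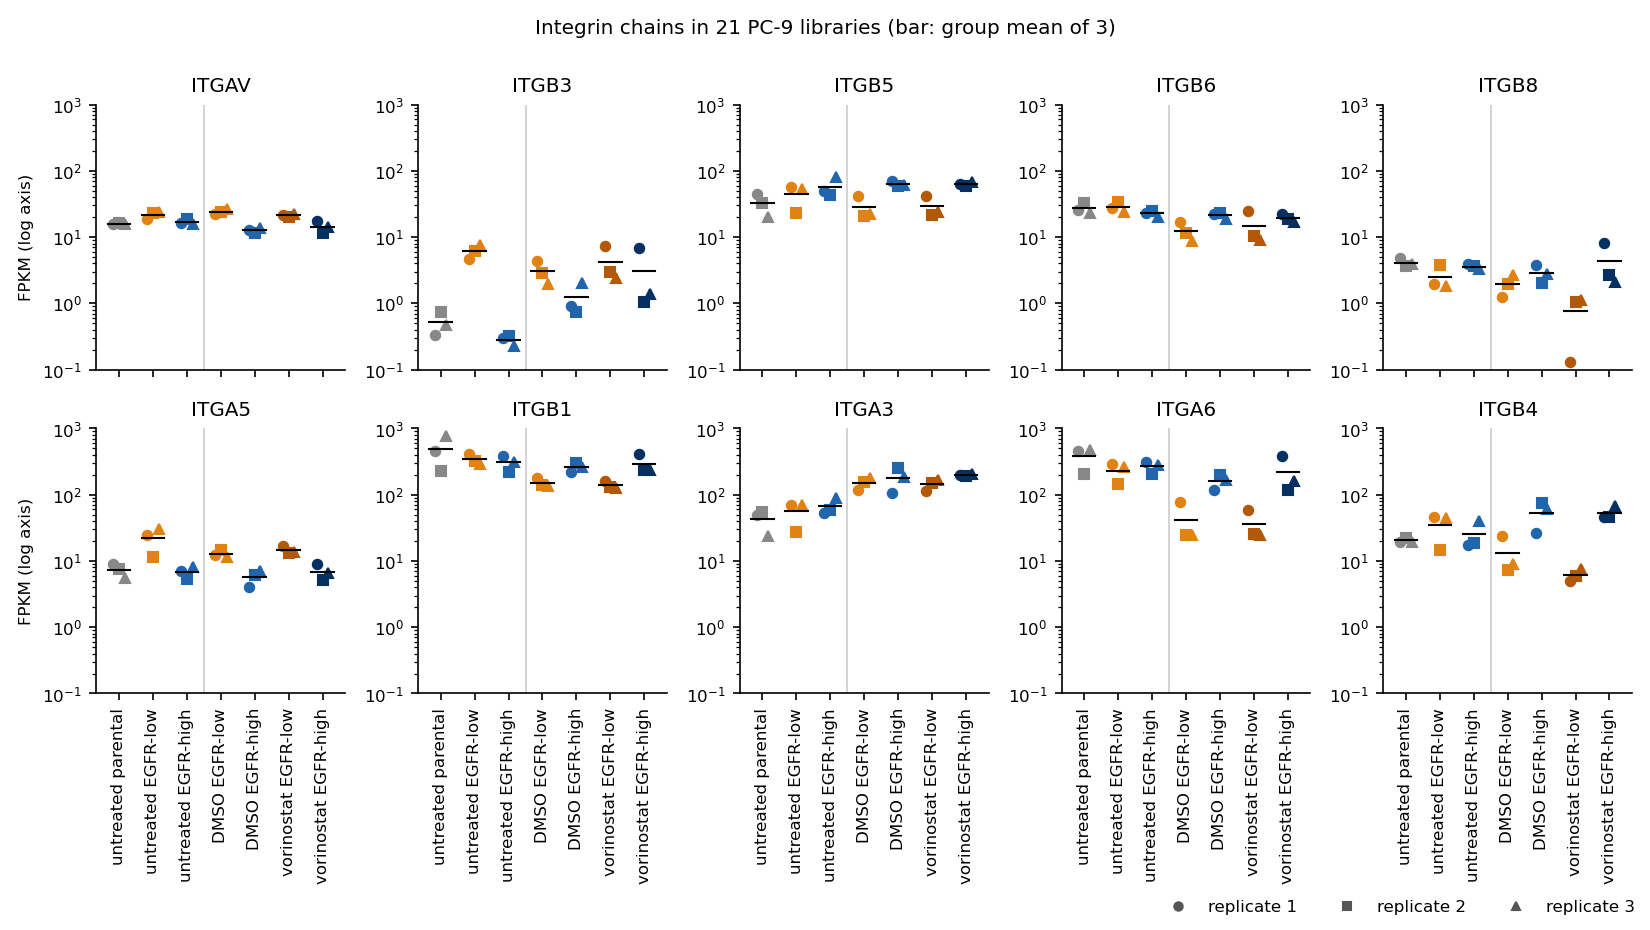
FPKM of the 10 chains in all 21 libraries on a log scale, 1 panel per gene, with points for libraries, lines for the means of 3 libraries and groups along the horizontal axis. ITGB3 lies at 4.60 to 7.71 FPKM in untreated EGFR-low cells and under 0.75 FPKM in the other untreated libraries, and the means of ITGA6 and ITGB4 are lowest in the 2 EGFR-low groups of the vorinostat experiment.

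The comparison of untreated EGFR-low with EGFR-high cells asks how the chains differ between the sorted populations. In it 2 of 10 members were called, ITGB3 and ITGA5, both higher in EGFR-low cells. Of all 11305 genes tested, 3.81% were called, 1.62% higher and 2.19% lower. A fit that blocked on replicate number also called 2 members, and 965 genes in place of 431. Against parental cells ITGB3 alone was called in EGFR-low cells, where 1.6% of all genes were. Between EGFR-high and parental cells limma called 0 members, with 0 members and 1093 genes at an unadjusted p under 0.05, and 0.0708% of all genes (8 genes) were called.

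ITGB3, the β3 chain, had 4.60, 6.15 and 7.71 FPKM in the 3 EGFR-low libraries. In EGFR-high cells it had 0.296, 0.318 and 0.228 FPKM, and in parental cells 0.336, 0.743 and 0.474 FPKM. Every EGFR-low library was above every other untreated library, and the EGFR-high libraries were all below the parental ones, by little. The log2 difference of EGFR-low from EGFR-high was 2.46 (SE 0.21, adjusted p = 8.37e-05, limma) and from parental 2.22 (SE 0.21, adjusted p = 0.000405). The difference of EGFR-high from parental was −0.24 with a 95% interval from −0.69 to 0.22. Since ITGB3 was near 0 in 6 libraries, the added pseudocount of 1 FPKM makes these differences smaller than the ratio of the means. ITGB3 passed the filter of 1 FPKM in 3 libraries only through the EGFR-low libraries, the group where it was high. Its p-values therefore belong to a gene that was tested because of that group. Endothelial markers (3 of 4 listed genes in the tables, CLDN5 at 0 in every untreated library) summed to 5.59 to 8.30 FPKM in EGFR-low, 2.69 to 4.26 in EGFR-high and 2.26 to 3.66 in parental libraries, and 1 of them passed the filter and was not called. Their part in the level of ITGB3 was not tested.

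ITGAV, the chain that β3 needs as its partner in these cells, had 18.5, 23.0 and 23.7 FPKM in EGFR-low, 16.2, 19.0 and 15.6 FPKM in EGFR-high and 15.9, 16.3 and 15.7 FPKM in parental libraries. The EGFR-low libraries lay above all parental ones but overlapped EGFR-high, and neither difference was called (0.34, 95% interval −0.13 to 0.81, adjusted p = 0.587 in limma, and 0.42, −0.05 to 0.89, adjusted p = 0.383). Its group means were 21.8 FPKM in EGFR-low, 17 FPKM in EGFR-high and 16.0 FPKM in parental cells.

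None of the other β chains that pair with αV was called beside β3. ITGB5, the β5 chain of the vitronectin receptor, had 56.6, 22.9 and 53.5 FPKM in EGFR-low and 48.8, 42.8 and 81.3 FPKM in EGFR-high cells, groups that overlapped (−0.42, SE 0.41). ITGB6, the epithelial activator of latent TGFβ, had 27.9, 34.3 and 24.1 FPKM in EGFR-low and 23.4, 24.5 and 20.3 FPKM in EGFR-high cells (0.32, SE 0.24). ITGB8, which also binds latent TGFβ, had 1.94, 3.76 and 1.83 FPKM in EGFR-low and 3.86, 3.63 and 3.27 FPKM in EGFR-high cells (−0.43, SE 0.24). The adjusted p of these 3 was 0.806, 0.692 and 0.524 in limma, and the 95% intervals ran from −1.32 to 0.48 for ITGB5 and from −0.21 to 0.84 for ITGB6.

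Expressed as a share of the 4 β chains that pair with αV alone or mainly (β3, β5, β6 and β8), β3 made up 5.05, 9.16 and 8.85% of their summed FPKM in untreated EGFR-low libraries. In EGFR-high libraries it made up 0.387, 0.445 and 0.217%, and in parental libraries 0.445, 1.06 and 0.999%. The EGFR-low libraries lay above all other untreated libraries, while EGFR-high and parental libraries overlapped, and the difference between the means of EGFR-low and EGFR-high was 7.34 percentage points (exact permutation test, two-sided p = 0.1, the smallest that 3 against 3 libraries can give). The summed FPKM of these 4 chains was 81.8 in EGFR-low and 84.3 in EGFR-high cells (exact permutation p = 0.9). Even in EGFR-low cells β5 and β6 transcripts, at a mean of 52.5% and 36.5% of the sum, stayed well above β3.

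**Figure D2:**
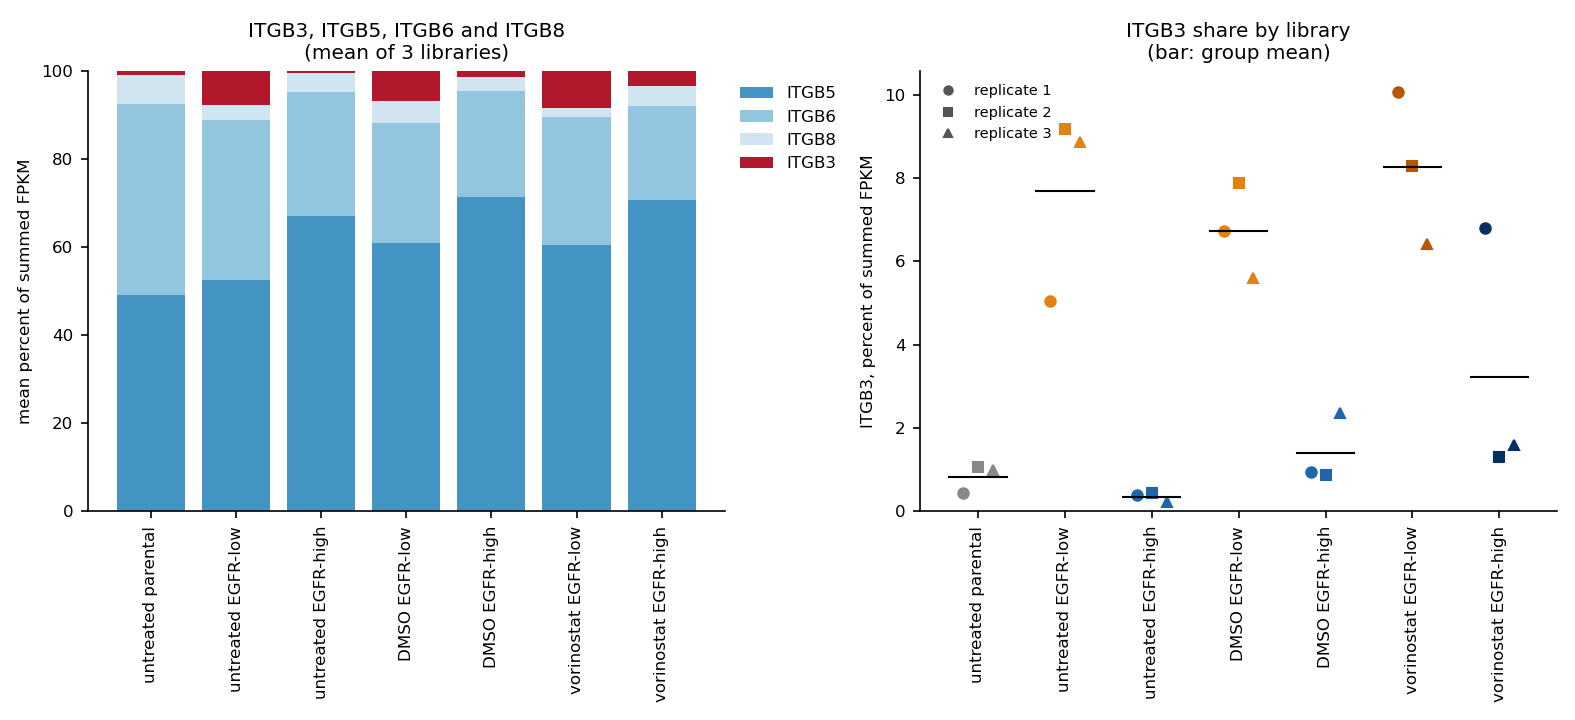
Left, the mean share in percent of the summed FPKM of ITGB3, ITGB5, ITGB6 and ITGB8 taken by each chain, as 1 stacked bar per group from 0 to 100%, and right, the share of ITGB3 in percent by library, with a line at the mean of each group of 3. The ITGB3 share lies at 5.05 to 9.16% in untreated EGFR-low libraries and at 0.217 to 0.445% in untreated EGFR-high libraries, and ITGB5 and ITGB6 fill most of every bar.

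ITGA5, the α5 chain of the fibronectin receptor, had 24.4, 11.4 and 30.5 FPKM in untreated EGFR-low cells against 6.98, 5.30 and 8.17 FPKM in EGFR-high and 8.94, 7.61 and 5.50 FPKM in parental cells. The EGFR-low libraries lay above all others, and their own spread was wide. The difference from EGFR-high was 1.48 (SE 0.34, adjusted p = 0.0378, limma). That call was lost without parental 1, EGFR-low 1, EGFR-low 3 or any of the EGFR-high libraries (adjusted p from 0.0621 to 0.171), and with no filter on low values, a filter at 5 FPKM or a fit of the compared groups alone (0.0717, 0.0523 and 0.0612). With the trend of level on GC content and length removed, it was 1.58 (adjusted p = 0.00119), and that of ITGB3 2.56 (adjusted p = 0.00023). The difference from parental was 1.39 (adjusted p = 0.0837). ITGB1, its partner, had 414, 323 and 294 FPKM in EGFR-low and 388, 221 and 314 FPKM in EGFR-high cells, and the difference of 0.18 (95% interval −0.73 to 1.09) was not called. ITGB3 and ITGA5 were the only members whose untreated EGFR-low and EGFR-high libraries did not overlap, 2 of 10, where 20.6% of all genes tested had groups that did not overlap. Against parental cells there were 3 (ITGAV, ITGB3 and ITGA5), with 17.1% of all genes.

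The laminin receptors were not called in untreated cells. ITGA6 had 286, 147 and 258 FPKM in EGFR-low, 315, 204 and 284 in EGFR-high and 449, 204 and 481 in parental libraries, with the second replicate lowest in each group. ITGB4, its hemidesmosome partner, had 46.5, 14.7 and 43.8 FPKM in EGFR-low and 17.6, 18.7 and 40.5 FPKM in EGFR-high cells. ITGA3, the other laminin-binding α chain, had 70.6, 26.9 and 70.1 FPKM in EGFR-low and 52.3, 58.6 and 89.6 FPKM in EGFR-high cells. EGFR-low 2 was the lowest of its group for all 3 genes, and the groups overlapped for each. The differences between EGFR-low and EGFR-high were −0.25 (SE 0.39), 0.38 (SE 0.43) and −0.34 (SE 0.43). Their 95% intervals ran from −1.10 to 0.60, from −0.58 to 1.34 and from −1.28 to 0.60, so that differences of 1 log2 unit were within reach of the spread.

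**Figure D3:**
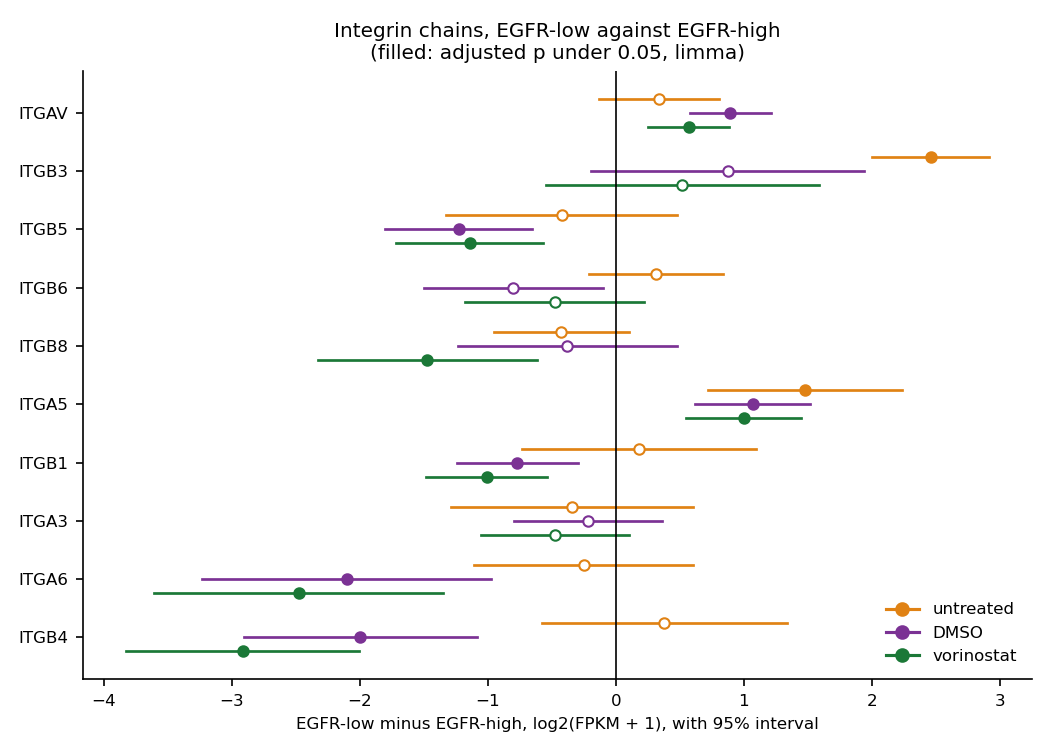
Log2 difference of EGFR-low from EGFR-high for the 10 chains, as points with 95% intervals from limma, for untreated cells, DMSO and vorinostat, filled where the adjusted p is under 0.05. ITGB3 (2.46) and ITGA5 (1.48) are the called chains in untreated cells, and ITGA6 and ITGB4 are at −2.10 and −1.99 in DMSO.

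EGFR-low and EGFR-high cells were compared again in DMSO, as the control of the drug experiment. Here 6 of 10 members were called, 2 higher in EGFR-low cells (ITGAV and ITGA5) and 4 lower (ITGB1, ITGB5, ITGA6 and ITGB4). In this comparison 51.8% of all 12236 genes were called, 31.1% higher and 20.7% lower, so a called member was close to the common case. Without the 2 intermediate libraries 7 members were called, 2 higher and 5 lower, where 30.3% of all genes were higher and 19.3% lower. The groups did not overlap for 7 of 10 members and for 69.3% of all genes. The median difference over all genes tested was 0.12 in DMSO and 0.16 in vorinostat (−0.03 untreated), and the members' medians were −0.57, −0.74 and 0.25. The untreated and drug experiments differ in time after seeding, handling and libraries, and differences between them were not tested.

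The largest differences lay in the α6β4 pair. ITGA6 had 77.5, 24.4 and 24.3 FPKM in DMSO EGFR-low libraries and 118, 199 and 167 FPKM in DMSO EGFR-high libraries, a log2 difference of −2.10 (SE 0.52, adjusted p = 0.00546, limma). ITGB4 had 23.4, 7.21 and 9.0 FPKM against 26.7, 74.1 and 60.0 FPKM, a difference of −1.99 (SE 0.42, adjusted p = 0.00215). No EGFR-low library reached any EGFR-high library for either gene, and DMSO EGFR-low 1, the library between the populations, was the highest of its group for both. Without it and DMSO EGFR-high 3 the differences were −2.60 and −2.33. The ratio of ITGA6 to ITGB4 was about the same in both populations, with a mean of 3.13 in EGFR-low and 3.29 in EGFR-high cells (exact permutation p = 0.9). The mean ratios were 3.04 and 3.55 without the intermediate libraries.

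ITGA3, in contrast, had 116, 155 and 176 FPKM in DMSO EGFR-low and 108, 249 and 188 FPKM in DMSO EGFR-high cells, and its difference of −0.22 (95% interval −0.80 to 0.36) was not called. It was 0.013 (adjusted p = 0.976, limma) without the intermediate libraries. Of the summed FPKM of the 4 α chains, ITGA6 took 33.9, 11.2 and 10.2% in EGFR-low and 48.7, 42.8 and 44.5% in EGFR-high libraries, a difference in means of −26.9 percentage points (exact permutation p = 0.1) and of −35.0 without the intermediate libraries. ITGA3 was the most abundant α chain in each DMSO EGFR-low library. In untreated cells ITGA6 had taken 71.6, 70.6 and 67.5% of that sum in EGFR-low and 80.7, 71.1 and 71.5% in EGFR-high libraries. The mean share of ITGA3 was 16.3% untreated and 65.3% in DMSO in EGFR-low cells, and 18.8% and 49.3% in EGFR-high cells.

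**Figure D4:**
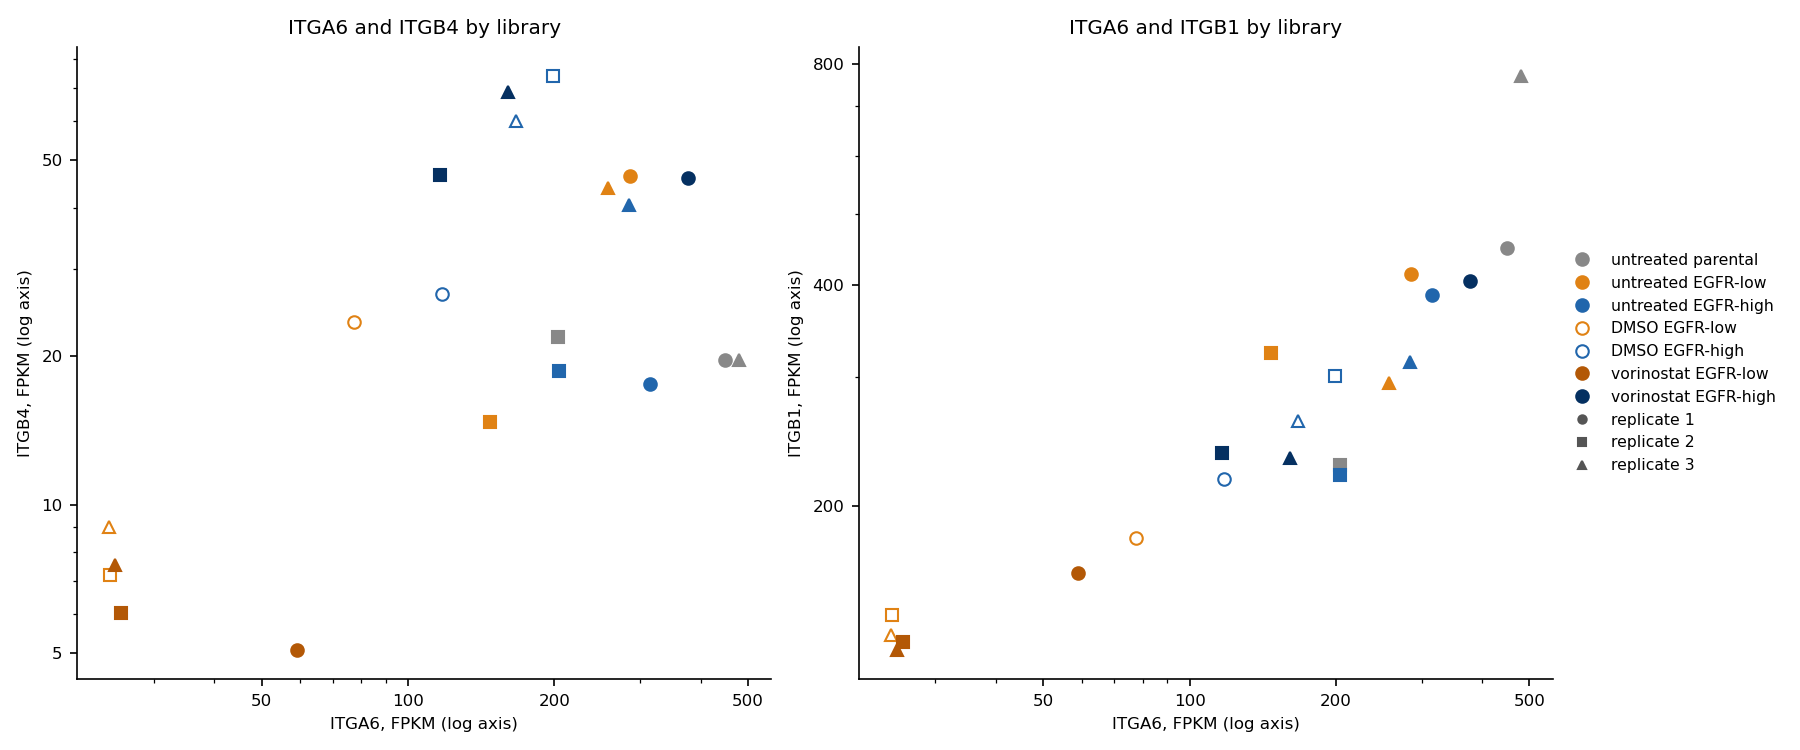
ITGA6 (horizontal axis) against ITGB4 (left) and ITGB1 (right), in FPKM on log axes, with 1 point per library, coloured by group and shaped by replicate. The DMSO EGFR-low libraries lie at 24.3 to 77.5 FPKM of ITGA6 and 7.21 to 23.4 FPKM of ITGB4, below all DMSO EGFR-high libraries in both.

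ITGB1 had 181, 142 and 134 FPKM in DMSO EGFR-low and 217, 301 and 261 FPKM in DMSO EGFR-high cells (−0.77, SE 0.22, adjusted p = 0.0116, limma). The groups did not overlap, but the call was lost without DMSO EGFR-high 2 (−0.66, adjusted p = 0.0516). Without both intermediate libraries the difference was −0.89 (adjusted p = 0.0211). ITGB5 had 41.8, 20.6 and 22.0 FPKM against 70.7, 60.0 and 61.6 FPKM (−1.23, SE 0.26, adjusted p = 0.00253), and −1.57 without the intermediate libraries. ITGB6 had 17.1, 11.5 and 8.61 FPKM against 22.6, 23.3 and 18.9 FPKM, groups that did not overlap, with a difference of −0.80 (SE 0.32) and an adjusted p = 0.0533, and it was called without the 2 intermediate libraries (−1.13, adjusted p = 0.0289) and with replicates as a block (adjusted p = 0.0108). The sum of the 4 β chains that depend on αV was 45.6 FPKM in EGFR-low and 89.8 FPKM in EGFR-high cells (exact permutation p = 0.1), and 36.2 and 92 FPKM without the intermediate libraries.

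The RGD-binding α chains went the other way. ITGAV had 22.1, 24.1 and 26.7 FPKM in DMSO EGFR-low and 12.6, 11.6 and 13.5 FPKM in DMSO EGFR-high cells, tight groups that lay far apart (0.89, SE 0.15, adjusted p = 0.000548, limma). ITGA5 had 12.4, 14.5 and 11.7 FPKM against 4.01, 6.13 and 7.01 FPKM (1.07, SE 0.21, adjusted p = 0.00136). Neither gene's groups overlapped, and without the intermediate libraries the differences were 1.01 and 1.23.

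ITGB3 had 4.34, 2.91 and 1.98 FPKM in DMSO EGFR-low and 0.925, 0.748 and 2.01 FPKM in DMSO EGFR-high cells. The highest EGFR-high value, 2.01, came from the intermediate library DMSO EGFR-high 3 and lay just above the lowest EGFR-low value. The difference was 0.87 (95% interval −0.19 to 1.94, adjusted p = 0.153, limma) and was not called. Without the intermediate libraries it was 0.90 (adjusted p = 0.235), and without vorinostat replicate 1 of both populations, which share the fit's estimate of spread, it was 0.87 with adjusted p = 0.0135. The call was also made without vorinostat EGFR-high 1 alone (adjusted p = 0.0484) and in a fit of the compared groups alone (adjusted p = 0.0341). As a share of the 4 β chains, where a lower sum in EGFR-low cells enters too, β3 took 6.74, 7.87 and 5.60% in EGFR-low and 0.943, 0.869 and 2.36% in EGFR-high libraries, which did not overlap (5.35 percentage points, exact permutation p = 0.1, and 5.83 points without the intermediate libraries). ITGB8 had 1.24, 1.99 and 2.70 FPKM against 3.77, 2.03 and 2.78 FPKM and was not called (−0.38, SE 0.39), nor without the intermediate libraries (−0.19, adjusted p = 0.769 in limma).

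The stretch before the annotated start of 3 members that differed in DMSO is shown. ITGA6 and ITGB5 were lower and ITGAV was higher in EGFR-low cells, and they do not stand for all chains that were lower or higher. The RefSeq table of promoters held 7 of the 10 members (12 starts, build GRCh38.p14), and ITGB3, ITGA3 and ITGB4 had no entry. Each line gives the 250 bases upstream of a start, 5′ to 3′ on the gene's strand, with matches on either strand in capitals. The letters searched were GGGCGG for SP1, TGANTCA for AP-1, TATAAA for the TATA box, CCGGAAG for ETS factors and GGAATG for TEAD factors. The matches shown do not overlap each other.
ITGA6, chr2:172427086-172427335, plus strand: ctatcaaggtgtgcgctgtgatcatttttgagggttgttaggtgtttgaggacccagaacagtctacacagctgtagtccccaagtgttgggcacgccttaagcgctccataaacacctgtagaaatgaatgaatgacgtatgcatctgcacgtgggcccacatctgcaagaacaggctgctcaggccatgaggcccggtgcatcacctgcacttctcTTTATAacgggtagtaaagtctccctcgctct
ITGB5, chr3:124901419-124901668, minus strand: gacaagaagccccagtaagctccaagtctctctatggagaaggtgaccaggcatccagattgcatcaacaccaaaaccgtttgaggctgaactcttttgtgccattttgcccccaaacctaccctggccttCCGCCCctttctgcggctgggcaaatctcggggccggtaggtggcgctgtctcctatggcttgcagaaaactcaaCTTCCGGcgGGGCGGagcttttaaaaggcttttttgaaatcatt
ITGAV, chr2:186589806-186590055, plus strand: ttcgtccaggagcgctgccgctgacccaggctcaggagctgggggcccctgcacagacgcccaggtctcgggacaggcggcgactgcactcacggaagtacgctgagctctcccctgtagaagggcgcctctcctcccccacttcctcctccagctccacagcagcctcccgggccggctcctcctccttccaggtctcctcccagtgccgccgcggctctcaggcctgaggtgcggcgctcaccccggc

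The ITGA6 stretch has 50.8% GC, 8 CpG and 1 TATAAA match, read on the other strand as TTTATA. A second ITGA6 start 250 bases downstream has 71.6% GC, 30 CpG, 3 GGGCGG matches and 1 CCGGAAG match. The ITGB5 stretch has 52.8% GC, 9 CpG, 2 GGGCGG matches and 1 CCGGAAG match, and the ITGAV stretch has 70.8% GC and 18 CpG with no match to these letters. The stretch of the other ITGAV start has 40.8% GC, 1 CpG and no match, and those of the other ITGB5 starts have 56.4% GC, 19 CpG and no match, and 75.2% GC, 23 CpG and 3 GGGCGG matches. ITGA5, also higher in DMSO EGFR-low cells, has 70% GC, 12 CpG, 1 GGGCGG and 1 GGAATG match. ITGB1, also lower, has a start with 78.4% GC, 32 CpG, 3 GGGCGG and 1 GGAATG match. Its other start has 41.6% GC, 4 CpG and 3 TATAAA matches. Over 34788 promoter stretches of the same length, 42.6% held GGGCGG, 10.8% TATAAA, 8.50% CCGGAAG, 11.9% GGAATG and 6.59% TGANTCA, and the medians were 58% GC and 11 CpG. Matches are a description of letters only. The genes themselves lie, in GRCh38 coordinates, at chr2:172427354-172506282 (ITGA6), chr3:124761948-124901418 (ITGB5), chr2:186590065-186680901 (ITGAV), chr17:47253846-47311816 (ITGB3), chr12:54395261-54419460 (ITGA5) and chr17:75721328-75757818 (ITGB4), while the submitters' processing notes name hg19.

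Under vorinostat the same populations were compared once more, and 7 of 10 members were called, where 59% of all genes were called, 36.2% higher and 22.8% lower. ITGAV (0.57, SE 0.15) and ITGA5 (1.00, SE 0.21) were higher in EGFR-low cells. ITGB1 (−1.01), ITGB5 (−1.14), ITGB8 (−1.47), ITGA6 (−2.48) and ITGB4 (−2.92) were lower. The groups did not overlap for 8 of 10 members, ITGA3 added to those called, and for 60.8% of all genes. ITGA6 had 59.0, 25.7 and 25 FPKM in EGFR-low and 378, 117 and 161 FPKM in EGFR-high cells (adjusted p = 0.00156, limma). ITGB4 had 5.06, 6.02 and 7.55 FPKM against 46.0, 46.6 and 68.6 FPKM (adjusted p = 0.00013). ITGB3 was at 7.38, 2.98 and 2.37 FPKM against 6.79, 1.05 and 1.38 FPKM, groups that overlapped through the first EGFR-high library, and was not called (0.52, SE 0.49). Without that library the difference was 1.13 (adjusted p = 0.0259). ITGAV was not called with scaling by the median of ratios (0.40, adjusted p = 0.0513).

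The effect of 1 µM vorinostat for 72 h was then compared within each population. limma called 0 members in EGFR-low and 0 in EGFR-high cells, as it called 0% of all genes in EGFR-low cells and 0% in EGFR-high cells. Unadjusted p-values under 0.05 were found for 115 and 409 genes of 12236, and for 0 members in either population. The lowest adjusted p among members was 0.940. The groups did not overlap for 1 member in EGFR-low cells (ITGB8) and for 0 members in EGFR-high cells, where 9.46% and 5.33% of all genes did not overlap. The difference between the responses of the populations was called for 0 members and 0% of genes too, with 0 members and 215 genes at an unadjusted p under 0.05.

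ITGB8 had 1.24, 1.99 and 2.70 FPKM in DMSO EGFR-low cells and 0.129, 1.05 and 1.14 FPKM in vorinostat EGFR-low cells (−0.78, 95% interval −1.63 to 0.08). In EGFR-high cells it had 8.29, 2.65 and 2.11 FPKM with vorinostat (0.32, −0.54 to 1.17). The response of ITGB4 was −0.82 in EGFR-low cells, with an interval from −1.73 to 0.09, and 0.10 in EGFR-high cells, from −0.81 to 1.01. For ITGB3 it was 0.28 (−0.78 to 1.35) and 0.64 (−0.43 to 1.70), and for ITGA6 −0.09 (−1.22 to 1.04) and 0.28 (−0.85 to 1.41). These intervals reach beyond 1 log2 unit on one side at least, so a change of that size was not excluded for these chains. They were narrower for ITGAV (−0.17, from −0.49 to 0.15, and 0.15, from −0.16 to 0.47).

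The first vorinostat replicate of each population set much of this spread. In EGFR-low cells 6 of 10 members in that library differed by more than 0.5 log2 units from the DMSO mean, against 2 and 2 in the other libraries. In EGFR-high cells it was 5 of 10, against 0 and 0. In EGFR-high replicate 1 ITGB3 was at 6.79 FPKM, ITGB8 at 8.29, ITGA6 at 378 and ITGB1 at 405, each above every other EGFR-high library of that experiment. Without the 2 first replicates limma still called 0 members for either response, and the directions of ITGB3, ITGB5, ITGB6 and ITGA3 in EGFR-low cells and of ITGB1, ITGB8 and ITGA6 in EGFR-high cells turned. On the second component vorinostat replicates 2 and 3 scored 4.15 and 3.97 in EGFR-low cells, against 3.83 to 7.13 in DMSO. In EGFR-high cells they scored 13.1 and 11.7, against −0.047 to 12.7 in DMSO. The first replicates scored −23.1 and −47.5. Pearson's r of vorinostat EGFR-low 2 with DMSO EGFR-low 2 was 0.997, and that of DMSO EGFR-low 2 with 3 was 0.994. Whether replicates 2 and 3 responded to the drug was not tested.

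The ligands of these receptors were counted from lists of known RGD proteins and laminin chains. In untreated cells 6 of the 10 RGD ligands tested were called between EGFR-low and EGFR-high, 3 higher and 3 lower, with a median difference of 0.13 over the list. Over all genes 1.62% were higher there and 2.19% lower. FN1, fibronectin, was at 78.3, 22.2 and 76.8 FPKM in EGFR-low against 8.47, 3.94 and 8.50 FPKM in EGFR-high cells (2.78, adjusted p = 0.0127, limma). SPP1, osteopontin, was at 417, 653 and 305 FPKM against 90.1, 130 and 72.0 FPKM (2.19, adjusted p = 0.01). L1CAM, a neural adhesion molecule with RGD motifs, was at 0.229, 0.0546 and 0.237 FPKM against 22.8, 22.7 and 36.0 FPKM (−4.55). L1CAM was also the called RGD ligand between EGFR-high and parental cells (3.08), and against parental cells EGFR-low cells had FN1 (2.59) and EDIL3 (1.36) higher and L1CAM (−1.47) lower. EDIL3 had 1.80 to 3.64 FPKM in EGFR-low libraries and at most 0.488 FPKM in parental and 0.198 FPKM in EGFR-high libraries. It passed the filter only through the EGFR-low libraries. The gene of vitronectin, VTN, stayed at or under 0.111 FPKM in every library.

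In DMSO 6 of 12 RGD ligands were higher and 3 lower in EGFR-low cells (median of the list 0.64), where 31.1% of all genes were higher and 20.7% lower. The largest differences were those of SPP1 (−4.00), EDIL3, a ligand of αV receptors (3.53), and TNC, tenascin C (2.73). SPP1 was at 13.3, 1.19 and 0.549 FPKM in DMSO EGFR-low and 85.6, 50.2 and 43.2 FPKM in DMSO EGFR-high cells. FN1 was higher there too (2.04, adjusted p = 0.0231, limma), at 18.3, 24.7 and 25.8 FPKM against 2.76, 3.08 and 11.5 FPKM, the last from the intermediate library. With the intermediate libraries left out 6 were again higher and 3 lower (median 0.80), where 30.3% of all genes were higher and 19.3% lower. In that fit SPP1 was at −5.18, EDIL3 at 4.69, TNC at 3.76 and FN1 at 2.74. With vorinostat 5 were higher and 4 lower (median 0.62), led by SPP1 (−4.94), EDIL3 (4.42) and L1CAM (−4.32). Over all genes 36.2% were higher under vorinostat and 22.8% lower.

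Of 8 tested laminin chains, 4 were lower and 0 higher in EGFR-low cells in DMSO (median −0.84), where 20.7% of all genes were lower, with LAMA4 at −3.58 and LAMB1 at −3.29. LAMB1, a laminin β chain, had 9.65, 1.23 and 0.914 FPKM in EGFR-low and 35.3, 36.1 and 30.3 FPKM in EGFR-high cells, groups that did not overlap, with DMSO EGFR-low 1, the intermediate library, the highest of its group. Again 4 were lower and 0 higher without the intermediate libraries (median −0.92), with LAMA4 at −4.60 and LAMB1 at −4.15. LAMA5 (−0.33), LAMB2 (−0.013), LAMB3 (0.51) and LAMC1 (0.43) were not called there. Under vorinostat 4 of 8 were lower (median −0.87), where 22.8% of all genes were, led by LAMA4 (−4.77) and LAMB1 (−3.97). In untreated cells limma called 0 of 8 (median 0.045), with 1529 of all genes at an unadjusted p under 0.05. ITGA2, the collagen receptor chain, was lower in EGFR-low cells in DMSO (−1.77, and −2.14 without the intermediate libraries) and in vorinostat (−2.34), and was the called one of the 4 other integrin chains tested with all libraries. ITGA7 was called as well in DMSO without the intermediate libraries (0.75, adjusted p = 0.0482, limma), a gene named after its value was seen.

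Among 28 adaptor and focal adhesion genes tested, 1 was higher and 1 lower in untreated EGFR-low cells, namely FERMT2, the integrin activator kindlin-2 (0.98), and TNS3, tensin 3 (−1.42). The list's median there was 0.019, and 1.62% of all genes were higher and 2.19% lower. In DMSO 6 were higher and 6 lower (median −0.091), where 31.1% of all genes were higher and 20.7% lower. PARVB, β-parvin, was at −2.69, TNS4, tensin 4, at −2.01 and FERMT2 at 1.36. Without the intermediate libraries 6 were higher and 5 lower (median −0.076), with these 3 at −3.37, −2.39 and 1.70. Of all genes 30.3% were higher in that fit and 19.3% lower. With vorinostat 7 were higher and 8 lower, led again by PARVB (−2.97), TNS4 (−2.88) and FERMT2 (1.63). Of all genes 36.2% were higher under vorinostat and 22.8% lower. FERMT2 had 8.06, 8.37 and 7.75 FPKM in untreated EGFR-low and 4.27, 3.44 and 3.14 FPKM in EGFR-high cells, and 10.3, 13.5 and 12.7 against 3.44, 3.20 and 6.07 FPKM in DMSO. Of 10 partners of laminin-binding integrins, CD82 was the called one in untreated cells (−1.12), where the median of the list was −0.036. CD82 had at most 0.497 FPKM in EGFR-low and 0.787 FPKM in parental libraries, against 1.38 to 2.12 FPKM in EGFR-high libraries. It was low throughout and passed the filter only through the EGFR-high libraries. The shares of all genes called, given above for the adaptor genes, apply to these partners as well. In DMSO 4 were higher and 1 lower (median 0.56), with LGALS3, galectin-3, at 1.29, SLC3A2, the CD98 heavy chain, at 1.09 and PLEC, plectin, which ties α6β4 to keratin, at −1.03. Without the intermediate libraries 5 were higher and 1 lower (median 0.76), with LGALS3 at 1.79 and PLEC at −1.04, and SLC3A2 was not called (1.19, adjusted p = 0.058, limma). Under vorinostat 5 were higher and 2 lower, with PLEC at −1.50, SLC3A2 at 1.27 and LGALS3 at 0.95. Vorinostat against DMSO gave 0 calls in each of these lists in both populations, and so did EGFR-low or EGFR-high against parental cells in the lists other than the RGD ligands. Of the 6 epithelial markers, KRT8 (−1.46), KRT19 (−1.31) and KRT18 (−0.94) were lower and CDH1 (1.06) was higher in EGFR-low cells in DMSO. These were −1.75, −1.50, −1.14 and 1.29 without the intermediate libraries. The other 2, EPCAM and KRT7, were not called (0.31 and −0.040 without the intermediate libraries). Of all genes 31.1% were higher in DMSO and 20.7% lower. In untreated cells 0 of 6 were called, where 3.81% of all genes were.

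The genes whose levels ran most like a chain are given as a description. They were ranked by the mean of Pearson's r over the 9 and over the 12 libraries, among 11118 genes. Both the population and the spread between replicates enter r. That spread was wide in untreated cells, where parental libraries scored −30.0, 30.0 and −56.0 on the first principal component (36.4% of the variance). For ITGB3 the genes were FAM105A (0.925), CTSK (0.912) and TMC7 (0.896). ITGA6 was followed by ASAP2 (0.967), HMGA2 (0.959) and STK4 (0.959), and ITGA5 by CYP26B1 (0.941), TTC9 (0.937) and HPSE (0.934). Among the members themselves, ITGB3 had a mean r of 0.794 with ITGA5 and 0.746 with ITGAV, and ITGA6 one of 0.881 with ITGB1.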

How the data were processed

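Poly(A)-selected RNA of 21 PC-9 libraries was sequenced by the authors, who deposited 2 tables of FPKM values for 20111 genes, 1 per experiment. The unit FPKM was inferred from the values and from the tools named, since the tables carry no unit. The submitters' processing notes name hg19, STAR 2.5.1b, Cufflinks 2.2.1 and DESeq2 1.10.1 without their roles, and counting by strand is not given in the sources used here. Depth is unknown, so no counting interval could be given, and FPKM summed to 467897 to 592942 per library.

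Each experiment was fitted on its own with limma 3.58.1 (R 4.3.3, trend, one mean per group, no block) on log2(FPKM + 1), for genes with at least 1 FPKM in 3 libraries (11305 and 12236 genes), with Benjamini-Hochberg adjustment at 0.05. Shares and ratios were compared by exact two-sided permutation tests (scipy 1.17.1), whose smallest p is 0.1. The fit was tested on simulated data with known changes. Set up like the untreated comparison of EGFR-low with EGFR-high, it recovered 14% of changes of 1 log2 unit and 73% of changes of 2. Set up like the DMSO comparison, it recovered 81% and 95%. A change of 1 log2 unit was thus often missed in the untreated design. The members, gene lists and tests were chosen with earlier results of these data known. Of each list, up to 3 called genes with the largest difference are named per comparison. Others that are named were chosen after their values were seen. The values of 1 listed gene are not reported here.

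Libraries carry replicate numbers 1 to 3 in their labels. Libraries of equal number deviated together (every correlation over 0.1) for EGFR-low with EGFR-high untreated (0.343, 0.730 and 0.689) and in vorinostat (0.353, 0.351 and 0.163), and for vorinostat with DMSO in EGFR-low cells (0.267, 0.302 and 0.329), and not in the other comparisons. Gene positions came from a GRCh38 annotation and promoters from RefSeq. Protein sequences were not used here.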

Additional observations from a re-analysis of the deposited data

Results flagged for a closer look

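Ligand genes went opposite ways in the 2 experiments, each with EGFR-low and EGFR-high libraries that did not overlap. LAMA4, a laminin α chain, was higher in untreated EGFR-low cells (log2 difference from EGFR-high 0.81, not called) and lower in DMSO (−3.58) and in vorinostat (−4.77). SPP1, osteopontin, was higher untreated (2.19) and lower in DMSO (−4.00) and in vorinostat (−4.94). MFGE8, an RGD ligand of αV receptors, was lower untreated (−1.23) and higher in DMSO (0.81). The difference between the experiments was not tested, since each table was fitted on its own and the experiments differ in time after seeding, handling and libraries. The integrin chains themselves gave no such pattern, and groups of 3 libraries are too small for a test of single outlying libraries.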

How the results depend on the processing

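Of the members called, ITGB3 and ITGA5 in untreated cells give 2 calls for EGFR-low against EGFR-high. This became 1 with no filter, 1 with the compared groups alone and 0 with a filter at 5 FPKM, which drops ITGB3 from the genes tested. Under 1 other setting a member that the main fit did not call was called. Leaving out 1 library gave 0 to 2 calls, where ITGB3 left the filter without any 1 of the EGFR-low libraries. With the genes tested held fixed (chosen after seeing the data, as were all fits on 10 libraries), 1 call was left without EGFR-low 1 and 1 without EGFR-low 3, in both cases ITGB3. Against parental cells the 1 call became 2 with median-of-ratios scaling, quantile normalization, the replicate block or removal of the GC and length trend, 4 with that trend removed and the block, 0 with a filter at 5 FPKM, 2 with fixed genes and without EGFR-low 2, and 0 to 1 when 1 library was left out. The block also called 525 of all 11305 genes there, in place of 181. Counts over all genes under the other settings are not given here. With ITGB1 added to the β chains, the rise in the share of β3 was 1.43 points untreated and 1.17 in DMSO. The replicate block gave 2, 7 and 7 members for EGFR-low against EGFR-high untreated, in DMSO and in vorinostat and 0 for each vorinostat response. Over all genes the block called 965, 6789 and 7632 in these 3 comparisons, in place of 431, 6334 and 7222. It added ITGB6 in DMSO (adjusted p = 0.0108) and ITGA5 against parental (adjusted p = 0.0446), and no other call changed. Without the 2 intermediate libraries 7 members were called in DMSO. Leaving out 1 library in turn gave 5 to 7 calls in DMSO and 7 to 8 under vorinostat. Over the settings other than leaving out 1 library, 4 member calls were gained and 1 was lost under vorinostat. Under vorinostat ITGB6 was called without vorinostat EGFR-low 1 (−0.90, adjusted p = 0.00777) and ITGA3 without DMSO EGFR-high 1 (adjusted p = 0.0477).

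Directions turned only for differences that were not called. EGFR-low against parental gave ITGA3 −0.078 with the GC and length trend removed, with or without the block. EGFR-high against parental gave ITGAV −0.027 (median of ratios) and −0.0039 (quantile), and with the GC trend removed, with or without the block, ITGB8 0.078 and ITGB4 −0.42. With fixed genes and without EGFR-low 2, ITGA3 was 0.11 and ITGA6 0.041 against EGFR-high, and ITGB6 −0.060 against parental. Without the intermediate libraries, ITGA3 was 0.013 in DMSO, and vorinostat against DMSO in EGFR-low cells gave ITGB1 0.014 and ITGA6 0.45, with 0.13 for the difference of responses of ITGA6. Without both first vorinostat replicates the responses in EGFR-low cells were −0.11 (ITGB3), −0.21 (ITGB5), −0.27 (ITGB6) and 0.11 (ITGA3), in EGFR-high cells −0.14 (ITGB1), −0.17 (ITGB8) and −0.20 (ITGA6), and their differences −0.19 (ITGB5) and 0.0071 (ITGA5). The response of ITGB5 in EGFR-high cells was 0.030 (median of ratios), 0.035 (quantile) and 0.0096 (GC trend removed, with or without the block).

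Leaving out 1 library in turn turned some uncalled differences, with these ranges. For untreated EGFR-low against EGFR-high they were ITGB1 −0.038 to 0.37, ITGA3 −0.57 to 0.11 and ITGA6 −0.43 to 0.041. Against parental cells EGFR-low gave ITGB1 −0.79 to 0.088, ITGB6 −0.060 to 0.21 and ITGA3 −0.028 to 0.79. Against the same cells EGFR-high gave ITGAV −0.0014 to 0.13, ITGA5 −0.26 to 0.056 and ITGB4 −0.16 to 0.42. DMSO gave ITGA3 −0.55 to 0.048. The vorinostat response in EGFR-low cells gave ITGB1 −0.22 to 0.014, ITGB3 −0.11 to 0.54, ITGB5 −0.21 to 0.37, ITGB6 −0.27 to 0.40, ITGA3 −0.21 to 0.11 and ITGA6 −0.49 to 0.45. In EGFR-high cells it gave ITGB1 −0.14 to 0.26, ITGB5 −0.071 to 0.046, ITGB8 −0.17 to 0.62, ITGA3 −0.12 to 0.48, ITGA6 −0.20 to 0.64 and ITGB4 −0.33 to 0.39. The difference of responses gave ITGB1 −0.38 to 0.021, ITGB3 −0.75 to 0.25, ITGB5 −0.18 to 0.40, ITGB6 −0.099 to 0.57, ITGA5 −0.23 to 0.13, ITGA3 −0.52 to 0.079 and ITGA6 −0.77 to 0.17. The cause was not tested. Depth is unknown and FPKM keep no counts, so low genes such as ITGB3 and ITGB8 carry an error that cannot be stated.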
